A study of Mus musculus with 18 samples.

Results

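Cd300lg, Tmem120a and Clstn3 are 3 of the 17672 genes in a count table from a mouse brown adipocyte line in which the lipase co-activator ABHD5 was knocked down and could be re-expressed. They were chosen as the leading 3, in order of p, of the genes called higher after the ABHD5 ligand SR-3420 in cells that had not been rescued. The difference between SR-3420 and vehicle in the unrescued cells is therefore given as a description, with no test. The tests of the 3 genes below compare groups that the choice did not use, with the spread between replicates estimated over all 18 libraries. In rescued cells all 3 genes were higher after SR-3420 than after vehicle, by 2.39-fold for Cd300lg, 2.90-fold for Tmem120a and 2.13-fold for Clstn3. The β-adrenergic agonist isoproterenol (ISO) separated them: in rescued cells it left Cd300lg within an interval of −0.33 to 0.35 around vehicle on the log2 scale, and raised Tmem120a 3.98-fold and Clstn3 5.74-fold.

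Brown adipocytes store triglyceride in lipid droplets and burn fatty acids for heat. At rest ABHD5 is held on the droplet by perilipins, and β-adrenergic signalling through cAMP frees it to serve as co-activator of ATGL, which starts triglyceride breakdown. SR-3420 is a synthetic ligand that does the same without the receptor, and the fatty acids that lipolysis releases can act as ligands of nuclear receptors of the PPAR family. Cd300lg encodes a CD300-family surface glycoprotein known mainly from endothelial cells, where it binds lymphocyte L-selectin. Tmem120a encodes a membrane protein of the nuclear envelope and endoplasmic reticulum with a role in adipocyte differentiation. Clstn3 encodes calsyntenin-3, a synaptic adhesion molecule in neurons, and in brown fat the locus also gives the adipocyte-specific product CLSTN3B at the endoplasmic reticulum and lipid droplet.

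All cells came from 1 stable line of differentiated brown adipocytes that carried an shRNA against Abhd5 and an shRNA-resistant, mCherry-tagged ABHD5 under a doxycycline (Dox) promoter. The 3 groups without Dox, labelled ABHD5 KD, were given vehicle (DMSO), ISO at 10 nM, or SR-3420 at 20 µM, each for 3 h. The 3 groups given 1 µg/ml Dox, labelled WT although they carry the shRNA and the construct as well, received the same DMSO, ISO or SR-3420. The 6 groups held 3 libraries each, which the study describes as independent experiments. A wild-type line without the shRNA, and Dox in cells without the construct, were not analysed here, so re-expression of ABHD5 and Dox itself cannot be told apart.

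Library totals ran from 689910 to 1956565 counts, with a median of 1145729. Abhd5, the targeted gene, stood at 47.2 to 55.8 CPM (counts scaled to a common library size) in the DMSO libraries without Dox and at 484 to 656 CPM in those with Dox, and its counts do not separate the endogenous gene from the construct. In ISO without Dox it stood at 130 to 173 CPM, 2.84-fold the level in DMSO (log2 SE 0.18, edgeR adjusted p = 3.34e-07). Abhd5 was thus 5.56-fold higher with Dox in ISO and 11.0-fold higher in DMSO. In SR-3420 without Dox it stood at 70.9 to 78.5 CPM, 1.45-fold the level in DMSO (log2 SE 0.19, edgeR adjusted p = 0.296). The line showed its adipocyte markers, of which 10 of 12 listed genes were in the table. Adipoq stood at no less than 302 and Plin1 at no less than 441 CPM in any library. Ucp1 and Adrb3 were at 0 in some libraries, and the lowest values were 10.1 CPM for Fabp4, 10.9 for Cidea and 17.7 for Prdm16. Replicate 1 of SR-3420 with Dox stood apart, since its 10 most abundant genes took 35.6% of the counts against 16.3 to 26.5% in the other 17 libraries. CPM were computed on the library size scaled by TMM (the trimmed mean of M-values). For 66.5% of 16399 genes the counted length lay within 10% of the summed introns, and for 2.49% within 10% of the exons, but which reads were counted, and so the share of unspliced RNA in the values, was not tested. In these bulk libraries, fewer cells of a type and less RNA per cell cannot be told apart.

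In the deposited table, on build mm9, Cd300lg (NM_027987) lies on the plus strand of chromosome 11 from 101902825 to 101916931. Tmem120a (NM_172541) lies on the minus strand of chromosome 5 from 136211360 to 136220042. Clstn3 (NM_153508) lies on the minus strand of chromosome 6 from 124380774 to 124414802. None of the 3 overlapped another annotated gene. The 7 annotated Clstn3 transcripts share 1 value in the table, so the calsyntenin-3 and CLSTN3B products could not be separated.

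Start-site sequence is shown for Tmem120a and Clstn3, which were both chosen for rising after SR-3420 without Dox. How their starts compare was not tested. RefSeq windows on build GRCm38.p6 were available for 2 of the 3 genes and cover 250 bases before to 50 after a start. Printed are the 150 bases before and the first 10 bases from the start, 5′ to 3′ on the gene's strand, with capitals for the matches named below. The Tmem120a stretch is chr5:135744163-135744322, the first Clstn3 stretch chr6:124464775-124464934 and the second chr6:124462735-124462894, each on the minus strand. Cd300lg has no window in that table.
Tmem120a: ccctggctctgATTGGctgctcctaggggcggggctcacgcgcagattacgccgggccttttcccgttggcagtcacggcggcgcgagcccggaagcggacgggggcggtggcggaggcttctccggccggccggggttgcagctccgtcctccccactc
Clstn3, first start: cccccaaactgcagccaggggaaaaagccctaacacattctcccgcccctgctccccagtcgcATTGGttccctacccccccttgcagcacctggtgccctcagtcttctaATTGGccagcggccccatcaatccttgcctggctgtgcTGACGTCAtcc
Clstn3, second start: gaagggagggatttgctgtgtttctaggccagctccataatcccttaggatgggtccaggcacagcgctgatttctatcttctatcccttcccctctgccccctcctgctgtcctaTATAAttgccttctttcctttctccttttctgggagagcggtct

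The 3 windows of 300 bases were searched on both strands for AGGTCA (the nuclear-receptor core), its direct repeat with 1 base between the copies (the PPAR form), TGACG (the core of a cAMP response element), the E-box CACGTG, the CCAAT box and TATAA. The Tmem120a window, with a GC content of 69%, held 1 CCAAT on the other strand, at −139. The first Clstn3 window held CCAAT at −87 and −39 on the other strand, and TGACG on both strands overlapping by 2 bases at −1, which reads TGACGTCA. The second Clstn3 start, 2040 bases further along the gene, had TATAA at −34 and neither CCAAT nor TGACG. Neither Clstn3 start was assigned to the calsyntenin-3 or the CLSTN3B product. Of all 32851 RefSeq windows, 37.4% held CCAAT, 24.9% TATAA, 20.8% TGACG, 16.3% AGGTCA, 7.15% CACGTG and 0.0396% the direct repeat. The overlapping TGACG pair, looked up after it was seen in Clstn3, stood in 1.79% of windows, among them that of Tmem120b, the paralog of Tmem120a. A match describes these letters only.

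Cd300lg was highest with SR-3420. Without Dox its libraries read 48.0, 51.7 and 43.6 CPM with DMSO (replicates 1 to 3), and 157, 171 and 185 CPM with SR-3420. The SR-3420 libraries all lay above the DMSO libraries, with means of 171 ± 13.9 against 47.8 ± 4.04 CPM (SD, n = 3) and a fitted log2 difference of 1.84 (SE 0.17). With ISO the same cells read 21.6, 25.8 and 42.8 CPM, all below the DMSO libraries but with replicate 3 close to them. The log2 difference of ISO from DMSO was −0.61 (SE 0.22). It was −0.99 when that replicate was left out, and −0.44 without replicate 1 of ISO. SR-3420 and ISO thus stood on opposite sides of DMSO for this gene in knockdown cells.

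With Dox, Cd300lg read 84.7, 71.8 and 94.4 CPM with DMSO, and 213, 167 and 221 CPM with SR-3420. The groups did not overlap, and the difference passed the test at a log2 fold change of 1.26 (SE 0.16, 95% interval 0.94 to 1.58, edgeR quasi-likelihood adjusted p = 2.4e-06). With ISO it read 84.2, 83.5 and 84.7 CPM, inside the range of DMSO, at a log2 fold change of 0.01 (SE 0.17, 95% interval −0.33 to 0.35, edgeR adjusted p = 0.978). ISO and SR-3420 with Dox differed by −1.25 (SE 0.16, edgeR adjusted p = 9.43e-07). Between ISO-treated cells without and with Dox it went from 30.1 ± 11.2 to 84.1 ± 0.61 CPM (SD, n = 3), a rise of 1.43 on the log2 scale (SE 0.19, edgeR adjusted p = 4.5e-06). In order, the SR-3420 groups with and without Dox came first and overlapped each other, then ISO and DMSO with Dox, which also overlapped, then DMSO without Dox and last ISO without Dox.

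Tmem120a was raised by both agents where ABHD5 was re-expressed. Without Dox its libraries read 99.7, 113 and 70.0 CPM with DMSO, and 239, 258 and 236 CPM with SR-3420. These groups did not overlap, at means of 94.2 ± 22.0 and 244 ± 11.8 CPM (SD, n = 3) and a log2 difference of 1.39 (SE 0.14). With ISO they read 121, 118 and 137 CPM, all above the DMSO libraries, though the lowest lay close to the highest of these, at a log2 difference of 0.43 (SE 0.15). It was 0.25 without replicate 3 of DMSO, and 0.26 with library totals only.

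With Dox, Tmem120a read 130, 142 and 137 CPM with DMSO, 392, 417 and 379 CPM with SR-3420, and 548, 558 and 522 CPM with ISO. The 3 groups were fully apart. SR-3420 raised the gene by 1.54 on the log2 scale (SE 0.14, 95% interval 1.26 to 1.82, edgeR adjusted p = 7.36e-09) and ISO by 2.00 (SE 0.14, 95% interval 1.72 to 2.27, edgeR adjusted p = 2.19e-12). ISO exceeded SR-3420 by 0.46 (SE 0.13, edgeR adjusted p = 0.0103), below the log2 limit of 1 used for a call. Between ISO-treated cells with and without Dox the rise was 2.11 (SE 0.14, edgeR adjusted p = 6.16e-12), from 125 ± 10.4 to 543 ± 18.9 CPM (SD, n = 3). The order was ISO with Dox, SR-3420 with Dox, SR-3420 without Dox, then DMSO with Dox and ISO without Dox, which overlapped, and last DMSO without Dox.

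Clstn3 was highest with ISO, whether or not ABHD5 was re-expressed. Without Dox its libraries read 142, 174 and 133 CPM with DMSO, 435, 530 and 399 CPM with SR-3420, and 1666, 1232 and 1303 CPM with ISO. The 3 groups were fully apart, with means of 150 ± 21.6, 455 ± 67.6 and 1401 ± 233 CPM (SD, n = 3). The log2 difference from DMSO was 1.61 (SE 0.17) for SR-3420 and 3.23 (SE 0.18) for ISO.

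With Dox, Clstn3 read 207, 276 and 226 CPM with DMSO, 562, 510 and 435 CPM with SR-3420, and 1406, 1168 and 1494 CPM with ISO. The groups were again apart. SR-3420 raised the gene by 1.10 on the log2 scale (SE 0.17, 95% interval 0.76 to 1.44, edgeR adjusted p = 3.71e-05) and ISO by 2.53 (SE 0.17, 95% interval 2.18 to 2.87, edgeR adjusted p = 1.91e-12). ISO exceeded SR-3420 by 1.43 (SE 0.16, edgeR adjusted p = 1.32e-07). ISO with Dox against ISO without Dox gave −0.05 (SE 0.16, 95% interval −0.37 to 0.27, edgeR adjusted p = 0.889), with overlapping libraries. The order was ISO with and without Dox, overlapping, then SR-3420 with and without Dox, overlapping, then DMSO with Dox and last DMSO without Dox.

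**Figure D1:**
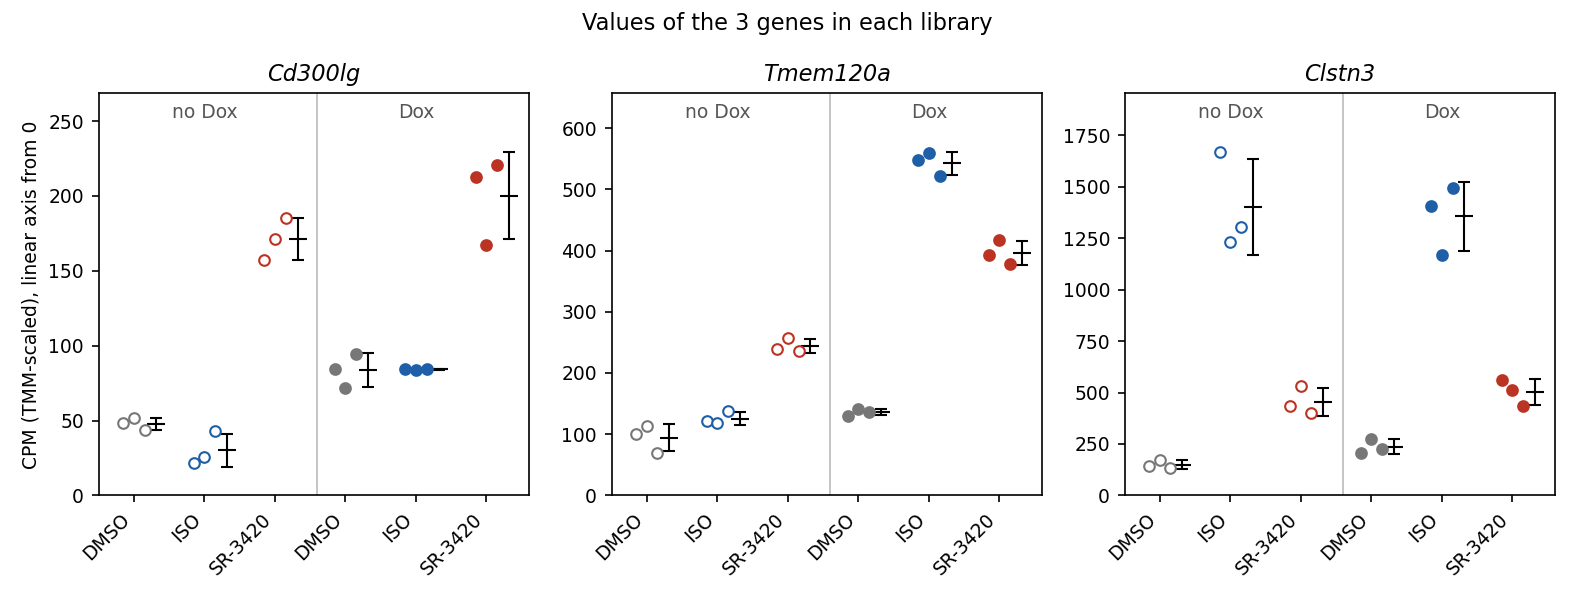
Values of Cd300lg, Tmem120a and Clstn3 in each of the 18 libraries, as CPM on linear axes from 0 (open symbols without Dox, filled symbols with Dox, bars mean ± SD of 3 libraries). Cd300lg peaks with SR-3420 in both states (171 and 200 CPM), Tmem120a with ISO and Dox (543 CPM against 125 without Dox), and Clstn3 with ISO in both states (1401 and 1356 CPM).

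Counted against all genes, 3 of 3 were called higher with SR-3420 in Dox-treated cells (an adjusted p no greater than 0.05, with a log2 difference of 1 or more), where 2.1% of the 10178 genes tested were called higher. All 3 passed the filter on low counts, with at least 20 counts in every library. With ISO and Dox, 2 of 3 were called higher, against 6.22% of genes (6.89% were called lower). These comparisons share the DMSO libraries with Dox. Between ISO with and without Dox, 2 of 3 were called higher with Dox against 3.13% of genes, and between ISO and SR-3420 with Dox 1 was called higher (3.49% of genes) and 1 lower (3.36%). Without replicate 1 of SR-3420 with Dox, the library that stood apart, the SR-3420 differences with Dox were 1.21, 1.55 and 1.01 for Cd300lg, Tmem120a and Clstn3, and all 3 were still called. With library totals in place of TMM the difference of Clstn3 was 0.91 (edgeR adjusted p = 0.00122), below the limit of 1, so that 2 of 3 were called.

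Values of the 3 genes were also higher with Dox in cells given DMSO. In DMSO the log2 difference between cells with and without Dox was 0.81 (SE 0.19) for Cd300lg, 0.54 (SE 0.15) for Tmem120a and 0.66 (SE 0.18) for Clstn3. In SR-3420 it was 0.23 (SE 0.15), 0.69 (SE 0.13) and 0.14 (SE 0.16), and with scaling by library totals only 0.01, 0.48 and −0.08, so that the sign turned for Clstn3. These comparisons use the libraries of the choice and carry no test. The change in the ISO response with Dox, as a fitted log2 interaction, was 0.62 (SE 0.27) for Cd300lg, 1.57 (SE 0.20) for Tmem120a and −0.70 (SE 0.23) for Clstn3. With 1 library left out, the value for Cd300lg ran from 0.45 (without replicate 1 of ISO without Dox) to 1.02 (without replicate 3 of that group). The change in the SR-3420 response was −0.58 (SE 0.24), 0.15 (SE 0.20) and −0.51 (SE 0.24), and that of Tmem120a ran from 0.02 without replicate 2 to 0.32 without replicate 3 of DMSO without Dox.

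**Figure D2:**
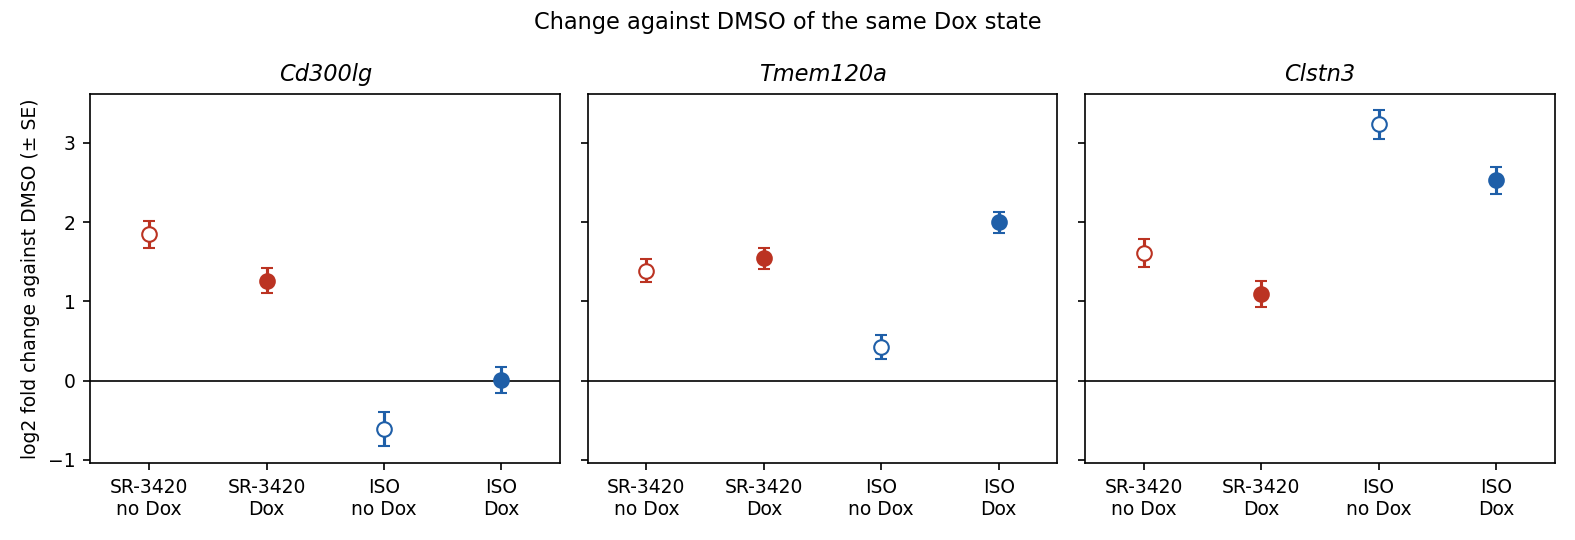
Fitted log2 fold changes against DMSO of the same Dox state (points, bars ± SE) for SR-3420 and ISO, without Dox (open) and with Dox (filled). SR-3420 lies between 1.10 and 1.84 for all 3 genes in both states, while ISO runs from −0.61 for Cd300lg to 3.23 for Clstn3 without Dox.

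Levels of the 3 genes were compared per kb of the counted length and, chosen after seeing the data, per kb of exon, since which reads were counted was not tested. By both lengths Tmem120a had the highest mean of the 3 in 5 of the 6 groups and Clstn3 in ISO without Dox. In that group Clstn3 stood at 47.0 CPM per kb of counted length against 17.1 for Tmem120a and 3.13 for Cd300lg, and with ISO and Dox Tmem120a stood at 74.2 against 45.5 for Clstn3 and 8.77 for Cd300lg. The order of Cd300lg and Clstn3 depended on the length in both SR-3420 groups and in DMSO with Dox. In DMSO without Dox and in both ISO groups Clstn3 was the higher of the pair by either length. After SR-3420 with Dox they stood at 20.9 and 16.9 CPM per kb of counted length and at 73.1 and 101 CPM per kb of exon. In DMSO without Dox they stood at 4.98 and 5.03 by the counted length and at 17.5 and 30.2 by the exons. Over the 18 libraries, which share groups and depth, the log2 CPM of Cd300lg and Tmem120a correlated at r = 0.64, Tmem120a and Clstn3 at r = 0.54 and Cd300lg and Clstn3 at r = −0.14.

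In knockdown cells SR-3420 called 24 genes higher (0.236% of those tested) and 3 lower (0.0295%), and the choice took the 3 with the smallest p. Clstn3 was the last inside, at a log2 difference of 1.61 (SE 0.17), and Acaa1b, a peroxisomal thiolase of β-oxidation, the first outside, at 2.02 (SE 0.23). Across 15 alternative settings and left-out libraries, the 3 genes held places between 1 and 4 in this order. These settings use the libraries of the choice, so the places are a description. The other 21 genes had log2 differences between 1.02 and 2.11. They included Acsl1, which activates long-chain fatty acids to acyl-CoA, Mgll, the monoglyceride lipase, Slc27a1, a fatty acid transporter, Fabp4, a fatty acid binding protein, and G0s2, an inhibitor of ATGL.

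In the Dox-treated libraries, which did not enter that order, 16 of the other 21 genes were called higher with SR-3420, against 2.1% of all genes tested, and their median log2 fold change was 1.35. Without replicate 1 of SR-3420 with Dox the count was 14. Acaa1b rose by 2.38 (edgeR adjusted p = 2.41e-08), Fabp4 by 2.82 (edgeR adjusted p = 1.79e-08) and Acsl1 by 1.72 (edgeR adjusted p = 2.59e-08). Slc27a1 stood at 0.25 (edgeR adjusted p = 0.485), Cmbl at 0.46 (edgeR adjusted p = 0.128) and Ldb3 at 1.03 (edgeR adjusted p = 0.12), none of which passed. With ISO and Dox 14 of the 21 were called higher (6.22% of all genes) and 1, Slc27a1, lower at −1.12 (edgeR adjusted p = 7.64e-05, with 6.89% of all genes lower). Acaa1b, Ctcfl, Mgll and Palmd overlap other annotated genes, so that their counts are uncertain.

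The ISO responses of the other genes called without Dox spread to both sides of 0, as those of the 3 did. Without Dox, ISO differences of the other 21 had a median of 0.44, with 7 below 0 and 4 at 1 or more. Slc27a1 (−1.17), Cmbl (−1.14), Pcsk4, a proprotein convertase (−1.08), and Nat8l, which makes N-acetylaspartate (−0.91), lay on the side of Cd300lg. On the other side 6430571L13Rik (1.67) and Tle3, a transcriptional corepressor (1.61), stood nearest to Clstn3, whose 3.23 lay above all 21. These genes were chosen by the same libraries, and their values are a description.

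**Figure D3:**
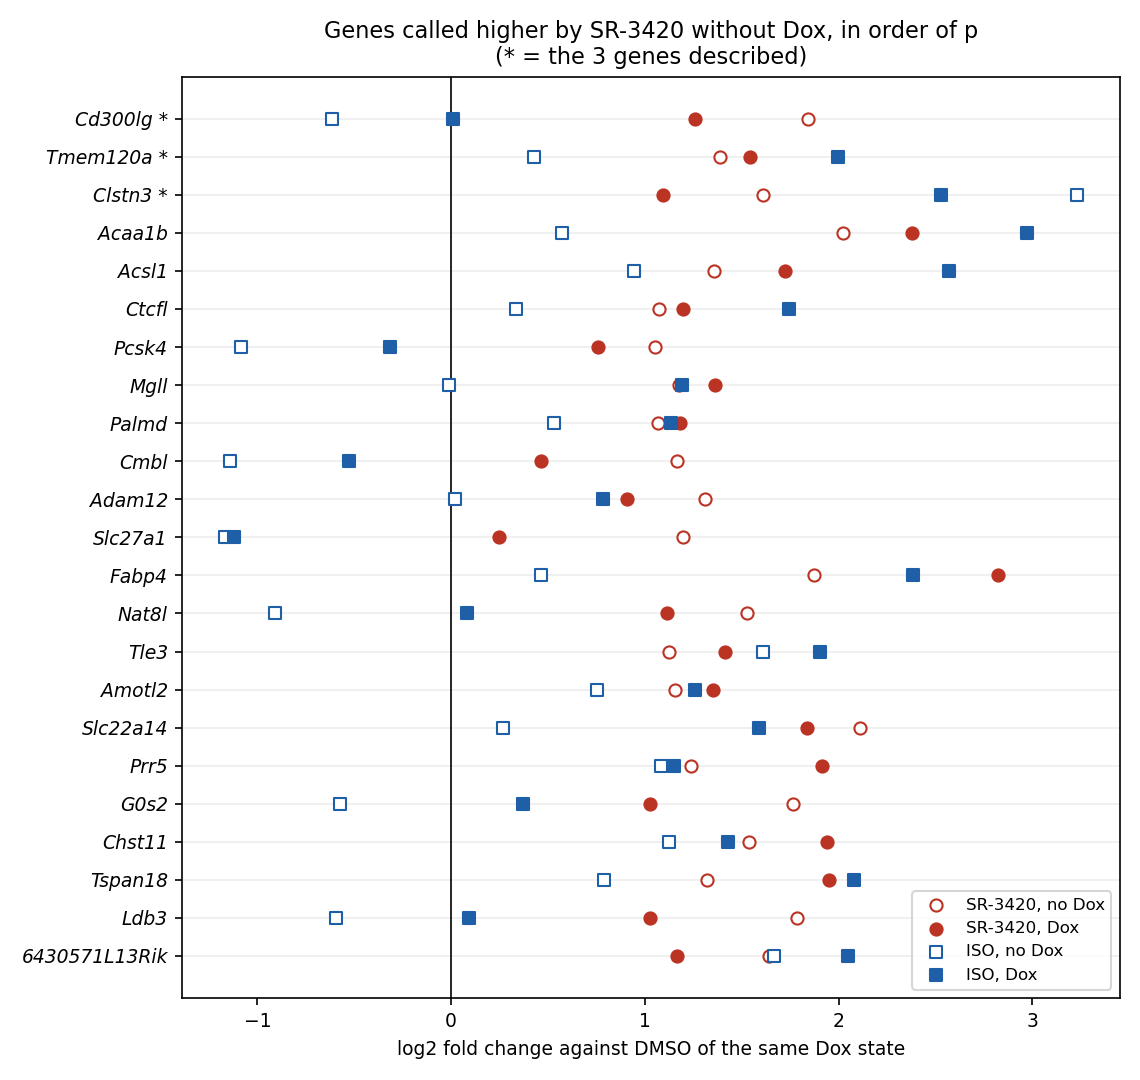
Log2 fold changes against DMSO of the same Dox state for 23 of the 24 genes called higher by SR-3420 without Dox, in order of p from the top (circles SR-3420, squares ISO, open without Dox, filled with Dox). All circles lie to the right of 0, whereas the open squares run from −1.17 for Slc27a1 to 3.23 for Clstn3.

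The genes whose log2 CPM followed each member most closely over the 18 libraries differed among the 3. For Cd300lg they were Pcsk4 (Pearson r = 0.95), Dhrs7b (0.95), Pitpnm2 (0.94), Nat8l (0.94) and Sfxn1, a mitochondrial serine carrier (0.93). For Tmem120a they included Ctcfl (0.96), Acsl1 (0.96), Piezo1 (0.95) and Palmd (0.94). For Clstn3 they were Lamb1, a laminin chain (0.96), Slc16a1, the monocarboxylate transporter MCT1 (0.95), Rnf144a (0.94), Tysnd1, a peroxisomal protease (0.94), and Apmap (0.93). The libraries share treatment and depth, so each r describes these 18 points over 10177 other genes. Pitpnm2, Ctcfl, Piezo1, Palmd, Lamb1 and Apmap overlap other annotated genes.

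Paralogs were examined beside each gene. Of 8 listed CD300 genes 6 were in the table and Cd300lg alone passed the filter, the others having at most 5 counts in any library. Tmem120b rose with SR-3420 and Dox by 0.61 (SE 0.13, edgeR adjusted p = 0.00261, and 0.104 with library totals only) and with ISO and Dox by 0.40 (SE 0.13, edgeR adjusted p = 0.023, and 0.1 with upper-quartile scaling or 0.268 with library totals), against 1.54 and 2.00 for Tmem120a. Between ISO with and without Dox it rose by 1.08 (SE 0.14, edgeR adjusted p = 3.29e-06), against 2.11 for Tmem120a. Without Dox Tmem120b was lower with ISO than with DMSO, whereas Tmem120a stood at 0.43. Clstn1, at 12.0 to 34.5 CPM, stood at −0.19 with SR-3420 and Dox (SE 0.25, edgeR adjusted p = 0.713) and fell by 0.87 with ISO and Dox (SE 0.27, edgeR adjusted p = 0.013), whereas Clstn3 rose in both. Clstn2 had at most 4 counts. The differences between paralogs were not tested, and Tmem120b overlaps another annotated gene.

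Genes within 100 kb of the 3 loci were examined for the same differences. Of 10 neighbours tested, 2 passed with SR-3420 in Dox-treated cells, Por and Pex5, both below the log2 limit of 1, while 9.9% of all genes tested passed without that limit. With ISO and Dox 3 of the 10 passed, Pex5, Mdh2 and C1s1, against 32.5% of all genes. Por, the cytochrome P450 reductase, ends 0.164 kb from Tmem120a and rose by 0.72 with SR-3420 and Dox (edgeR adjusted p = 0.000109), with 0.30 for ISO (edgeR adjusted p = 0.0523, and 0.0137 when replicate number entered as a block). Por overlaps another annotated gene. Pex5, the import receptor of peroxisomes, lies 15.7 kb from Clstn3 and rose by 0.63 with SR-3420 (edgeR adjusted p = 0.00665, and 0.115 with library totals only) and by 2.34 with ISO (edgeR adjusted p = 4.12e-13) in Dox-treated cells, beside the 2.53 of Clstn3 with ISO. C1s1, a complement protease 65.6 kb from Clstn3, went the other way with ISO and Dox and fell by 0.96 (edgeR adjusted p = 0.00676). Mdh2, the mitochondrial malate dehydrogenase near Tmem120a, rose by 0.61 (edgeR adjusted p = 0.000826). Without Dox, Pex5 was also called higher with ISO, at 1.95 (edgeR adjusted p = 2.75e-11), and ISO with and without Dox differed by 0.0042 (edgeR adjusted p = 0.989), where Clstn3 gave −0.05. Mpp2, a membrane scaffold protein 1.40 kb from Cd300lg, fell with ISO without Dox by 1.11 (edgeR adjusted p = 0.024) and stood at −0.78 with ISO and Dox (edgeR adjusted p = 0.0571).

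**Figure D4:**
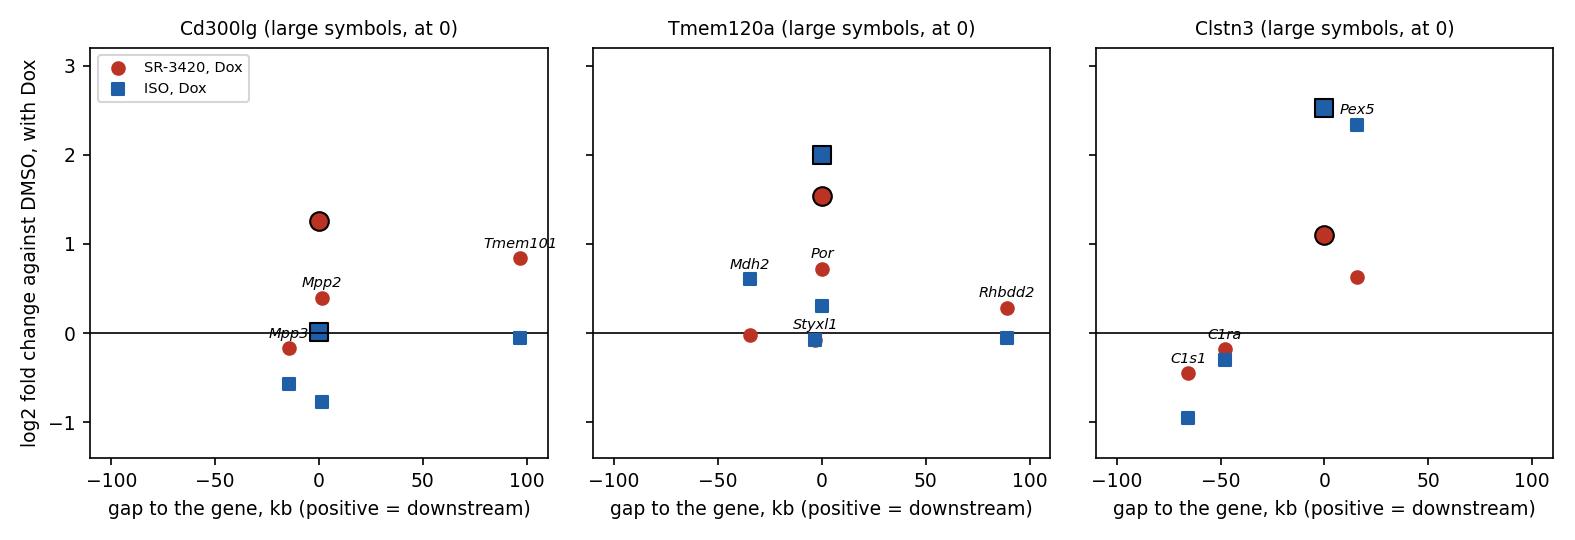
Log2 fold changes against DMSO with Dox for the tested genes within 100 kb of each member, against the gap between the genes in kb (circles SR-3420, squares ISO, the member itself as large symbols at 0). Pex5 stands beside Clstn3 at 2.34 with ISO, and Por beside Tmem120a at 0.72 with SR-3420.

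Other genes of the pathways were counted from lists of PPAR targets, cAMP targets and lipid droplet genes, none of which holds a member. Of 30 PPAR targets tested, 11 were called higher with SR-3420 and Dox (2.1% of all genes), with a median log2 fold change of 0.84 against −0.02 over all genes, and 13 were called higher and 1 lower with ISO and Dox (6.22% and 6.89% of all genes). Scaled by library totals alone, 7 were called higher with SR-3420. Under TMM scaling the first 4 by p with SR-3420 included Pdk4, which restrains glucose oxidation (2.68), Fabp4 (2.82) and Acsl1 (1.72). With ISO they were Pck1, a glyceroneogenic enzyme (5.35), Gyk, glycerol kinase (3.84), Acsl1 (2.57) and Ucp1, the uncoupling protein, which was at least 91.1-fold higher against a floor of 3 counts per library. Without Dox, in libraries that the choice of the 3 genes used, 3 of the 30 were called higher with SR-3420 (0.236% of all genes). With ISO and no Dox, against the same DMSO libraries, 6 were called higher and 2 lower (5.81% and 5.08% of all genes).

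Of 16 cAMP targets tested, 3 were called higher with SR-3420 and Dox (2.1% of all genes): Ppargc1a, the coactivator PGC-1α (1.14), Sik1, a kinase induced by cAMP (1.41), and Atf3, a stress-inducible transcription factor, for which no fold is given since it had at most 6 counts in any DMSO library with Dox. Without replicate 1 of SR-3420 with Dox 2 were called. With ISO 10 were called higher and 2 lower with Dox (6.22% and 6.89% of all genes), and 9 higher without Dox (5.81%). Vdr (3.46), Ppargc1a (3.28) and Crem, a cAMP-responsive repressor (1.69), were among the 4 with the smallest p in Dox-treated cells, and the remaining one, the nuclear receptor Nr4a3, was at least 7.33-fold higher against the same floor. Between ISO with and without Dox, 1 of the 16 cAMP targets, 15 of the 30 PPAR targets and 3.13% of all genes were called higher with Dox, and the difference between the lists was not tested.

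Of 18 lipid droplet genes tested, 8 were called higher with SR-3420 and Dox (2.1% of all genes), with Plin2, a droplet coat protein, at 2.05, Mgll at 1.36, Plin4 at 1.62 and Dgat1, which makes triglyceride, at 1.44. With ISO and Dox 7 were called higher (6.22% of all genes), with Dgat1 at 3.02, Plin4 at 2.29 and Plin2 at 1.89. No fold is given for the other of the first 4, Hilpda, an ATGL inhibitor, which had at most 6 counts in any DMSO library with Dox. Hilpda and Mgll overlap other annotated genes.

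Because Cd300lg is known from endothelium and Clstn3 from neurons, markers of cells the culture could hold were summed. Of 12 endothelial markers 11 were in the table, and their summed level was 21.8 to 47.7 CPM with DMSO and 33.0 to 43.6 CPM with SR-3420 without Dox, and 41.6 to 43.3 and 27.0 to 42.2 CPM with Dox. Tie1 was at 0 in every library, and Kdr and Cdh5 never exceeded 1 count. The part of endothelial cells in the values of Cd300lg was not tested. The 8 neuron markers summed to 76.7 to 121 CPM over all libraries, against 133 to 1666 CPM for Clstn3 alone, and Tubb3 never exceeded 1 count. The 8 macrophage markers in the table summed to 9.52 to 20.2 CPM. The 7 preadipocyte markers summed to 374 to 455 CPM with DMSO, 311 to 336 with ISO and 373 to 473 with SR-3420 without Dox, and to 437 to 639, 295 to 402 and 410 to 500 CPM with Dox. The sum was thus lower with ISO than with DMSO in both states, where Clstn3 was higher. Of the 4 preadipocyte markers tested, 1 was called higher and 1 lower with ISO without Dox (5.81% and 5.08% of all genes). Their median log2 fold change with ISO was 0.01 without Dox and −0.07 with Dox. The part of preadipocytes in the ISO values was not tested. The 10 adipocyte markers summed to 1594 to 1845 CPM with DMSO, 1686 to 2030 with ISO and 2471 to 2731 with SR-3420 without Dox. With Dox they summed to 1977 to 2171, 3663 to 4198 and 3180 to 4018 CPM, an order that moved with Tmem120a, and their part in its values was not tested.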

How the data were processed

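RNA-seq counts of 18 libraries were analysed, 6 groups of 3 assigned from the sample titles. Per the study's methods and the submitters' processing notes, the authors aligned reads to mm9 with STAR 2.4.2a, collapsed reads with HOMER and counted them per gene with iRNA-seq. The deposited counts were whole numbers, not normalised. Strand of counting is not given in the sources used here.

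Genes were kept with filterByExpr (10178 of 17672), scaled by TMM and fitted with edgeR 4.0.16 quasi-likelihood functions in R 4.3.3, with 1 mean per group over all libraries. Tests were two-sided with Benjamini-Hochberg adjustment across the tested genes. A call needed an adjusted p no greater than 0.05, with a log2 difference of 1 or more. SEs came from the F statistic. The fit was tested on simulated data. Members and gene lists were chosen with earlier results of these data known. Genes named were the members, their paralogs and neighbours within 100 kb, the 5 most like by correlation, the first 4 called genes of a list by p, and members of the 24 genes called by SR-3420 without Dox; those picked from the 24, and from neighbours, were picked after their values were seen. The values of 1 gene among these are not reported here. Comparisons that use the libraries of the choice carry no test for the members.

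Same-numbered libraries deviated together: each of the 18 correlated best, on average, with its own number in the other groups. The median r was 0.15 for same-numbered pairs and −0.09 for other pairs. Every same-numbered pair was over 0.1 for SR-3420 or ISO against DMSO with Dox (0.12 to 0.26). The same held for ISO with and without Dox (0.13 to 0.25) and for SR-3420 against DMSO without Dox (0.14 to 0.26). Between ISO and SR-3420 with Dox the pairs ran from 0.0851 to 0.28. Alternatives were other scalings, filters, DESeq2 1.42.0, limma 3.58.1, the replicate block and left-out libraries.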

Additional observations from a re-analysis of the deposited data

How the results depend on the processing

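Of 180 recomputed values of the 3 genes in tested comparisons, 174 kept their direction and their side of an adjusted p of 0.05. Clstn3 for SR-3420 with Dox came to 0.91 when scaled by library totals, under the log2 limit of a call. The 6 exceptions were values near 0. For ISO with Dox, Cd300lg was −0.11 with upper-quartile factors, −0.13 with library totals only, −0.013 with at least 10 counts in every library and −0.08 to 0.10 with 1 library left out (−0.075 without replicate 2 of DMSO with Dox). For ISO with against without Dox, Clstn3 ran from −0.11 to 0.10 with 1 library left out, at 0.10 without replicate 1 of ISO without Dox and 0.07 without replicate 2 of ISO with Dox. The cause was not tested. The adjusted p of Tmem120a for ISO against SR-3420 with Dox ran from 0.000543 to 0.0477. Of 351 described log2 differences 344 moved by less than the spread between replicates. Without replicate 3 of ISO without Dox, Cd300lg stood at −0.99 from DMSO and −2.83 from SR-3420. With library totals only, Tmem120a stood at −1.08 for ISO against SR-3420 without Dox.

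The number of genes called for SR-3420 without Dox, 27, became 41 without a filter, 78 without the fold limit and 41 with the replicate block, of which 25 were shared, and 16 to 31 with 1 library left out (16 without replicate 1 of DMSO without Dox). With at least 10 counts in every library, which tests fewer genes, and without the fold limit, calls were 581 and 2846 for ISO without Dox (1108 as reported), 177 and 1008 for SR-3420 with Dox (316), 694 and 3309 for ISO with Dox (1334), 346 and 2016 for ISO against SR-3420 with Dox (697), and 237 and 1297 for ISO with against without Dox (477). The block on replicate number changed no call of the 3 genes. Library totals only moved the median log2 fold change of all genes by −0.19 for SR-3420 and −0.14 for ISO with Dox and by −0.18 for ISO without Dox, and upper-quartile factors by −0.12 for ISO with Dox. The share of calls that were higher, 67.7% for SR-3420 with Dox, became 57.6% with upper-quartile factors and 35.2% with library totals, that for ISO with Dox went from 47.5% to 35.3% and 33.4%, and that for ISO without Dox from 53.3% to 33.0% with library totals. With 3 libraries a group, differences inside the intervals that span 0 could not be told from 0. The alternatives for gene lists, paralogs, neighbours and exon length were chosen after seeing the data.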
